A study of Mus musculus with 6 samples.

Results

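The 7 genes described here encode partners in synaptic and axonal adhesion: the neurexins Nrxn2 and Nrxn3, the neuroligins Nlgn1 and Nlgn2, the contactin-associated protein Cntnap2, and the contactins Cntn1 and Cntn4. They were chosen by name from the 37310 genes of the mm9 annotation. The rule uses no measured value, but the genes were chosen with earlier results of these data known. Acetylation of lysine 5 on histone H4 (H4K5ac) was measured by chromatin immunoprecipitation and sequencing (ChIP-Seq) in hippocampus of C57/BL6 mice, with an age of 6 months in the labels. Fear-conditioned mice (FC) had received a foot shock in the training context on 2 days and were tested for memory on day 3, and context-only controls (CON) visited the context without shock. Tissue was collected 1 hour after the test. Each group had 1 library from the H4K5ac antibody (H4K5ac-ChIP), 1 from a mock immunoprecipitation (IgG-IP) and 1 from input chromatin. Although 3 hippocampal samples per group were cross-linked separately, the data of a group and antibody are 1 library, and whether it combines those samples is not given in the sources used here, so FC and CON were compared without replicates and no p-value is given. All intervals below are 95% intervals and cover counting error only.

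Neurexins sit on the presynaptic membrane and bind neuroligins on the postsynaptic side, which brings the release machinery and the receptors of a synapse into register. Neurexin genes are transcribed from several promoters, an upstream one for the long alpha forms and internal ones for shorter forms. Contactins are adhesion molecules anchored to the outer membrane by a lipid, and members of the contactin-associated family, Cntnap2 (Caspr2) among them, join them on axons. Acetylation of H4K5 is a mark of open chromatin that is found around promoters and within transcribed genes.

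The 7 genes fell into a GC-rich pair and 5 long genes poor in GC. Nrxn2 (chr19:6418731-6544169, plus strand) covers 125 kb with a GC content of 53.7%, and Nlgn2 (chr11:69636624-69651286, minus strand) covers 14.7 kb with 55.4%. Nrxn3 (chr12:89961320-91573375, plus), Nlgn1 (chr3:25330733-26032656, minus), Cntnap2 (chr6:45010060-47251368, plus), Cntn1 (chr15:91881596-92172398, plus) and Cntn4 (chr6:105627654-106649304, plus) cover 291 to 2241 kb, and their GC content was 37.4% to 39.3%. Coding transcripts of the 7 genes start at 22 sites that lie over 500 bp apart, numbered below along transcription and called TSS clusters (TSS, transcription start site). Nrxn3 has 6 of them, Nrxn2 has 4, Nlgn2, Cntn1 and Cntn4 have 3 each, Cntnap2 has 2 and Nlgn1 has 1. Reads of the coding genes Slc22a12, which overlaps Nrxn2, and Rbpsuh-rs3, which lies within Cntnap2, could not be told apart from those of their hosts.

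The bases just upstream of 3 of these TSS clusters are shown, 2 at which H4K5ac-ChIP was over 0.5 log2 units denser than in the flanks in both groups and 1 at which it was less dense. The 250 bases before the TSS were read from the mm9 genome on the strand of the gene, and capitals mark each CG dinucleotide. Cntnap2 cluster 1 (chr6:45009810-45010059) is the outermost promoter of its gene, Cntn4 cluster 3 (chr6:106068509-106068758) lies 441 kb inside Cntn4, and Nrxn2 cluster 4 (chr19:6497578-6497827) lies 79.1 kb inside Nrxn2. Of the 250 bases before Nrxn2 cluster 4, 157 lie in exons of noncoding Nrxn2 transcripts. The other 2 stretches hold no annotated exon of their gene.
Cntn4 cluster 3: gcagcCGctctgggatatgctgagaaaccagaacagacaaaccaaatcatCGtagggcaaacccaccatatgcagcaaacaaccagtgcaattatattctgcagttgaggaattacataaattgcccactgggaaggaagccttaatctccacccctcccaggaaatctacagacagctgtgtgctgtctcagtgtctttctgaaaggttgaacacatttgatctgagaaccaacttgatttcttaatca
Cntnap2 cluster 1: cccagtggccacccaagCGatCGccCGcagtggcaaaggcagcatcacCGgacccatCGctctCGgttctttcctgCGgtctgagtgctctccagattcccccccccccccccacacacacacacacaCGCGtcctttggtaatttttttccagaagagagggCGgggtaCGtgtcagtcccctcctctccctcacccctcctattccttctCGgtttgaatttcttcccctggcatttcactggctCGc
Nrxn2 cluster 4: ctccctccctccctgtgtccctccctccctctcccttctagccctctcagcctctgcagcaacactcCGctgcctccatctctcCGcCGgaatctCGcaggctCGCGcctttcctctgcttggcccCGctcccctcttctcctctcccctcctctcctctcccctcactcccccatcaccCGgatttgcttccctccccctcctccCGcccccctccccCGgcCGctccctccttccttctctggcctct

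Cntnap2 cluster 1 held 13 CG dinucleotides in these 250 bases, Nrxn2 cluster 4 held 11 and Cntn4 cluster 3 held 2. The median over the first coding TSS of 22337 genes was 9, with a middle range (25th to 75th percentile) of 3 to 18. Cntn4 cluster 3 is therefore the CpG-poor one of the 3. The letters GGGCGG, on either strand, were present before Cntnap2 cluster 1 and Nrxn2 cluster 4 and not before Cntn4 cluster 3, and before 7 of the 22 clusters in all, against 40.2% of all 22337 promoters of this length with at least 1 match. TATAAA, searched on both strands, was in none of the 3, in 1 of the 22 and in 12.3% of all promoters. The 22337 are first coding TSSs, whereas the 22 include internal ones, so these shares cover unlike sets.

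Over the whole gene body, read density was highest in Nrxn2 and lowest in Cntnap2 in both H4K5ac-ChIP libraries. Density is given as RPKM, the reads overlapping a region per kb, scaled to the aligned reads of the library. Depth ran from 14549689 reads (FC IgG-IP) to 45673239 reads (FC input), and each of the 7 genes except Nlgn2 held 619 to 32540 reads per library. Nlgn2, the shortest, held 62 to 420.

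**Figure D1:**
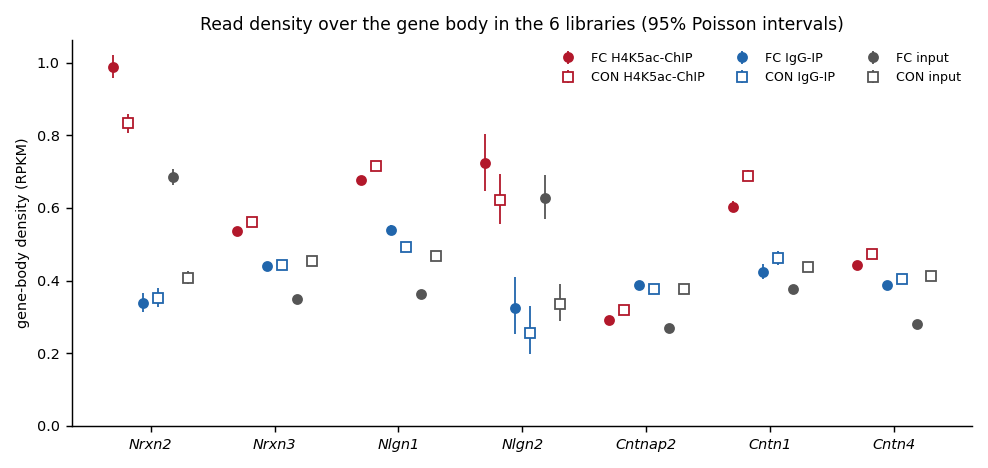
Read density (RPKM, vertical axis) over the gene body of each of the 7 genes in the 6 libraries, with filled circles for FC, open squares for CON and bars for the 95% Poisson interval. H4K5ac-ChIP lies above IgG-IP in 6 genes and below it in Cntnap2, and FC input is above CON input only in Nrxn2 and Nlgn2.

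Nrxn2, a presynaptic neurexin, reached 0.989 RPKM in the FC and 0.832 in the CON H4K5ac-ChIP library, against 0.339 and 0.352 in IgG-IP and 0.685 and 0.408 in input. Nrxn3, its paralog, had 0.538 and 0.561 RPKM in H4K5ac-ChIP, 0.440 and 0.443 in IgG-IP, and 0.350 and 0.453 in input. Both neurexins were thus denser in H4K5ac-ChIP than in the mock precipitation, Nrxn2 by a wide margin, and the input of Nrxn2 was higher in FC while that of Nrxn3 was higher in CON.

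Nlgn1, the neuroligin best known at excitatory synapses, had H4K5ac-ChIP densities of 0.676 RPKM in FC and 0.714 in CON, IgG-IP densities of 0.539 and 0.492, and input densities of 0.362 and 0.467. Nlgn2, which acts at inhibitory synapses, had 0.723 and 0.622 RPKM in H4K5ac-ChIP, 0.323 and 0.256 in IgG-IP, and 0.627 and 0.336 in input. In FC the H4K5ac-ChIP and input intervals of Nlgn2 overlapped (0.648 to 0.805 and 0.569 to 0.690 RPKM), and in CON they did not.

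Among the contactin partners, Cntnap2 had H4K5ac-ChIP densities of 0.290 (FC) and 0.318 RPKM (CON), below its 0.387 and 0.378 in IgG-IP, with input at 0.268 and 0.377. Cntn1, a contactin of axons and of the paranodal junction, had 0.603 and 0.689 RPKM in H4K5ac-ChIP, 0.424 and 0.461 in IgG-IP, and 0.378 and 0.438 in input. Cntn4, a contactin of the developing and adult brain, had 0.444 and 0.474 RPKM in H4K5ac-ChIP, 0.389 and 0.403 in IgG-IP, and 0.281 and 0.412 in input. Cntnap2 was the gene of the 7 in which the antibody library was sparser than the mock library in both groups.

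The order by H4K5ac-ChIP density in FC was Nrxn2, Nlgn2, Nlgn1, Cntn1, Nrxn3, Cntn4 and Cntnap2. The intervals of the neighbours Nlgn2 (0.648 to 0.805 RPKM) and Nlgn1 (0.665 to 0.687) overlapped, and those of all other neighbours did not. In CON the order was Nrxn2, Nlgn1, Cntn1, Nlgn2, Nrxn3, Cntn4 and Cntnap2. There the interval of Cntn1 (0.673 to 0.705) overlapped that of Nlgn1 (0.704 to 0.725), and the interval of Nlgn2 (0.557 to 0.693) overlapped those of Cntn1 and Nrxn3 (0.555 to 0.567).

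Relative to IgG-IP, Nrxn2 and Nlgn2 were the 2 of 7 genes whose gene-body density was over 1 log2 unit higher in H4K5ac-ChIP, in FC as in CON. Over all protein-coding genes with at least 50 reads, 34.2% in FC and 25.6% in CON passed that limit, so the share among the 7 genes was near the background. The log2 ratio of Nrxn2 was, in FC, 1.54 (1.42 to 1.67) and, in CON, 1.24 (1.13 to 1.36), and that of Nlgn2 was 1.16 (0.78 to 1.56) and 1.28 (0.88 to 1.69). Cntn1 followed with 0.51 and 0.58, then Nlgn1 with 0.33 and 0.54, Nrxn3 with 0.29 and 0.34, and Cntn4 with 0.19 and 0.23. Cntnap2 stood at -0.42 (-0.45 to -0.39) in FC and -0.25 (-0.28 to -0.22) in CON. The median over the 7 genes was 0.33 in FC and 0.54 in CON, beside 0.73 and 0.64 over all protein-coding genes.

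These ratios moved with GC content across the genome. Across 9594 genes of 20 kb or more, Spearman's rho between GC content and the log2 ratio of H4K5ac-ChIP to IgG-IP in FC was 0.597, and across 9597 genes in CON it was 0.486, as a description over genes that share the same libraries. Set against the median over protein-coding genes of any length with like GC content, in steps of 1%, the order of the 7 genes changed. Nlgn1 then stood highest, 0.55 above that median in FC and 0.69 above in CON, with Cntn4 at 0.41 and 0.39 and Cntn1 at 0.34 and 0.35. Nrxn2 was 0.24 and 0.16 above it, Nrxn3 0.12 and 0.11 above it, and Cntnap2 lay at -0.20 and -0.09. Nlgn2 lay at -0.31 in FC and 0.08 in CON. None of the 7 genes was over 1 log2 unit above genes of like GC content, and the share of all genes that were is not given.

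Against input in place of IgG-IP, 0 of 7 genes passed 1 log2 unit in FC and 1 did in CON, against 3.99% and 15.0% of all protein-coding genes. That gene was Nrxn2 in CON, with 1.03 (0.95 to 1.11), and its FC value was 0.53. Nlgn1 was highest in FC with 0.90 (0.87 to 0.94). Cntnap2 was slightly denser in H4K5ac-ChIP than in input in FC (0.11) and less dense in CON (-0.25).

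Nlgn1 contained a stretch in which the controls, more than the antibody library, were dense. In the 50 kb at chr3:25410001-25460000, inside an intron of 473 kb and 573 kb from the Nlgn1 TSS, the FC IgG-IP library had 2.19 RPKM against 0.413 in the rest of the gene, a fold of 5.30. In CON IgG-IP the density was 1.48 against 0.417 RPKM, a fold of 3.54. Input was denser in the same place, at 1.43 against 0.281 RPKM in FC and 1.27 against 0.406 in CON. H4K5ac-ChIP had 0.959 RPKM there against 0.654 in FC, a fold of 1.47 (1.39 to 1.55), and 0.895 against 0.700 in CON, a fold of 1.28 (1.21 to 1.34).

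All 5 windows of 10 kb in this stretch exceeded 1.5 times the median window of Nlgn1 in both input libraries, and no other window of the 7 genes did. The stretch holds no Nlgn1 exon and 1 other annotated gene, a 5S_rRNA gene at chr3:25444942-25445076. With only reads of a mapping score of 20 or more, the folds were 5.64 and 3.70 in IgG-IP and 5.43 and 3.23 in input, about as large as with all reads. With 1 read kept per position and strand, they were 5.34 and 3.56 in IgG-IP and 4.90 and 3.06 in input. Of 2399 protein-coding genes of 100 kb or more, 8 (0.333%) held a run of 5 or more such windows. Copy number was not tested.

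Leaving this stretch out raised the gene-body ratio of H4K5ac-ChIP to IgG-IP in Nlgn1 to 0.67 in FC (from 0.33) and 0.75 in CON (from 0.54), and its FC ratio to input to 1.22 (from 0.90). That removal was chosen after the data were seen. The plot of density along the gene shows the stretch as a spike in IgG-IP and input near the end of Nlgn1, with a much smaller rise in H4K5ac-ChIP.

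**Figure D2:**
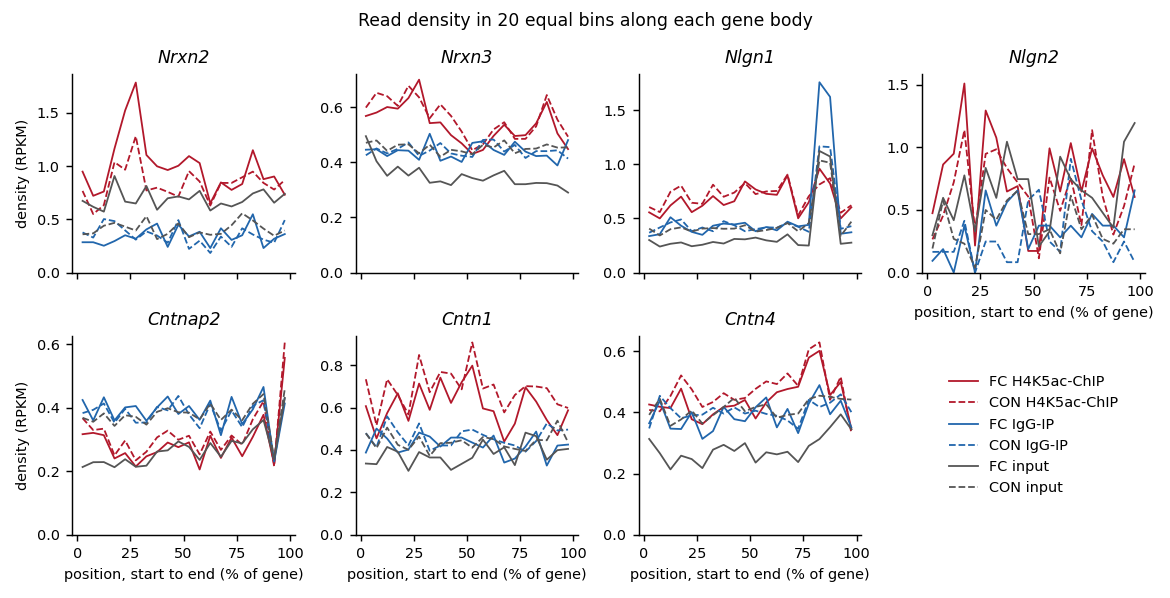
Read density (RPKM, vertical axis) in 20 equal bins from the start to the end of each gene body (horizontal axis, % of the gene), with solid lines for FC and dashed lines for CON. IgG-IP reaches 1.76 RPKM in FC in bin 17 of Nlgn1, Nrxn2 H4K5ac-ChIP peaks in bin 6, and Cntnap2 H4K5ac-ChIP is highest in its last bin.

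Within the gene, H4K5ac-ChIP was denser at the start than at the end of Nrxn3 and denser at the end of Cntnap2 in both groups, while Nrxn2 passed the limit in FC alone. Each gene body was cut into 3 equal segments, called start, middle and end, and the log2 ratio of start to end was counted where it passed 0.2. Nrxn3 had 0.604, 0.487 and 0.522 RPKM in the start, middle and end segments of FC H4K5ac-ChIP, and 0.623, 0.529 and 0.533 in CON. Its ratio of start to end in FC was 0.21 (0.17 to 0.25), that in CON 0.23 (0.19 to 0.26), and in IgG-IP it was 0.03 and 0.02. Less the IgG-IP ratio, Nrxn3 in FC was at 0.18, short of the limit. The start of Nrxn3 was thus the densest segment in both groups, and the IgG-IP ratios were close to 0. FC input had a ratio of the same size, 0.26 (0.22 to 0.31), whereas CON input had 0.02.

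Nrxn2 had 1.15, 0.944 and 0.878 RPKM from start to end in FC and 0.863, 0.775 and 0.863 in CON. Its ratio in FC was 0.38 (0.27 to 0.50) and that in CON -0.00 (-0.11 to 0.11), while the inputs were at -0.02 and -0.01. The start segment was the denser one in FC, and start and end did not differ beyond the interval in CON. Between the first and last 10% of Nrxn2 the ratio was 0.04 in FC and -0.33 in CON. The widest gaps between the groups lay in bins 5 and 6 of 20, where FC H4K5ac-ChIP reached 1.52 and 1.79 RPKM and CON reached 0.967 and 1.28. Nlgn2 had a ratio of 0.28 in FC with an interval that spanned 0 (-0.09 to 0.66).

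In all, 3 of 7 genes in FC and 1 in CON were over 0.2 denser at the start, where 32.1% and 31.4% of genes of 20 kb or more were. Nlgn2, 1 of the 3, is shorter than that. In the opposite direction, Cntnap2 and Cntn4 passed -0.2 in FC and Cntnap2 alone in CON, against 32.1% and 31.0% of those genes. Cntnap2 had 0.276 RPKM at the start and 0.326 at the end in FC, and 0.299 and 0.355 in CON, for ratios of -0.24 and -0.25. IgG-IP of Cntnap2 leaned the other way, with 0.08 and 0.06. FC input leaned to the end more strongly than the antibody library, with -0.50 (-0.55 to -0.46), and CON input less, with -0.07 (-0.11 to -0.03).

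Cntn4 had 0.415 RPKM at the start and 0.489 at the end in FC, and 0.446 and 0.502 in CON, with ratios of -0.24 (-0.29 to -0.18) and -0.17 (-0.22 to -0.12). Its controls leaned the same way, with -0.31 and -0.16 in input and -0.15 and -0.05 in IgG-IP. Between the first and last 10% of Cntn4 the ratio was -0.0021 in FC and -0.065 in CON. Its densest bin was bin 17 of 20 in both groups, at 0.602 and 0.630 RPKM. Cntn1 was densest in its middle segment, at 0.654 RPKM in FC and 0.732 in CON. In Nlgn1 the antibody library had 0.605, 0.730 and 0.693 RPKM in FC and 0.683, 0.754 and 0.706 in CON. Without the dense stretch, the ratio of start to end in Nlgn1 was -0.03 in FC and 0.06 in CON.

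The last of the 20 bins of Cntnap2 stood apart from the rest of that gene. H4K5ac-ChIP there was 0.557 RPKM in FC and 0.606 in CON, against medians over the 20 bins of 0.283 and 0.309. IgG-IP in this bin was 0.413 and 0.433 RPKM, close to its medians of 0.401 and 0.391. Input was also highest in this bin, at 0.431 RPKM in FC and 0.459 in CON against medians of 0.254 and 0.379. The last bin was the only bin of this gene in which both H4K5ac-ChIP libraries exceeded the IgG-IP library of their group. It holds the second TSS cluster of Cntnap2, from which a short coding transcript starts. Within 2 kb of that TSS, the log2 ratio of H4K5ac-ChIP to IgG-IP was 0.19 (-0.41 to 0.81) in FC. In CON it was -0.0027 (-0.49 to 0.51), so the intervals of both groups spanned 0.

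H4K5ac-ChIP density dropped outside the borders of Nrxn3, Nlgn1, Cntn1 and Cntn4 on both sides. Up to 100 kb of intergenic sequence was taken on each side. For Nrxn3, H4K5ac-ChIP was 0.295 RPKM upstream and 0.226 downstream in FC, and 0.307 and 0.239 in CON, so the body was denser than the upstream side by 0.87 log2 units in both groups and than the downstream side by 1.23 in CON. In IgG-IP the same differences were 0.16 and 0.09 in FC and 0.08 and 0.13 in CON. For Cntn1 the FC body was denser by 1.06 and 1.24, beside 0.32 and 0.23 in IgG-IP. For Cntn4 it was denser by 1.33 and 0.45, beside 0.22 and 0.12. For Nlgn1 it was denser by 0.47 and 1.30, but IgG-IP, with the dense stretch included, differed by 0.47 and 0.50 there. Cntnap2 differed: its body was denser than the upstream side by 0.72 in FC and 0.96 in CON, but less dense than the downstream side, at -0.90 and -0.74, and input leaned the same way with -0.79 and -0.32. For Nrxn2 the body exceeded the downstream side by 0.98 and 0.79 and the upstream side, of which only 16.9 kb is intergenic, by 0.24 and 0.15.

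At the 22 TSS clusters, density within 2 kb on each side was compared with flanks 5 to 25 kb away. In both H4K5ac-ChIP libraries, 6 of the 22 clusters were over 0.5 log2 units denser than their flanks. Of the first coding TSSs of all genes 24.9% were, but the 22 include internal TSSs, so the 2 shares cover unlike sets. The 6 were Cntn4 clusters 1 and 3, Cntnap2 cluster 1, Cntn1 cluster 1, Nlgn1 cluster 1 and Nrxn3 cluster 3. Of the 7 first coding TSSs, the kind that the 24.9% counts, 4 passed, and Cntn4 cluster 3 and Nrxn3 cluster 3 are internal. Cntn4 cluster 3 alone of the 6 stayed past 0.5 in both groups when the ratio of input to its flanks was subtracted. Cntn4 cluster 1 fell just short of it in FC, with 1.71 in H4K5ac-ChIP and 1.22 in input, and passed it in CON. The share of all first coding TSSs past this limit is not given. Within 1 kb of the TSS, Nlgn1 cluster 1 fell short of the limit, with 0.40 and 0.49, and Cntn1 cluster 3 passed it, with 0.87 and 0.50.

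**Figure D3:**
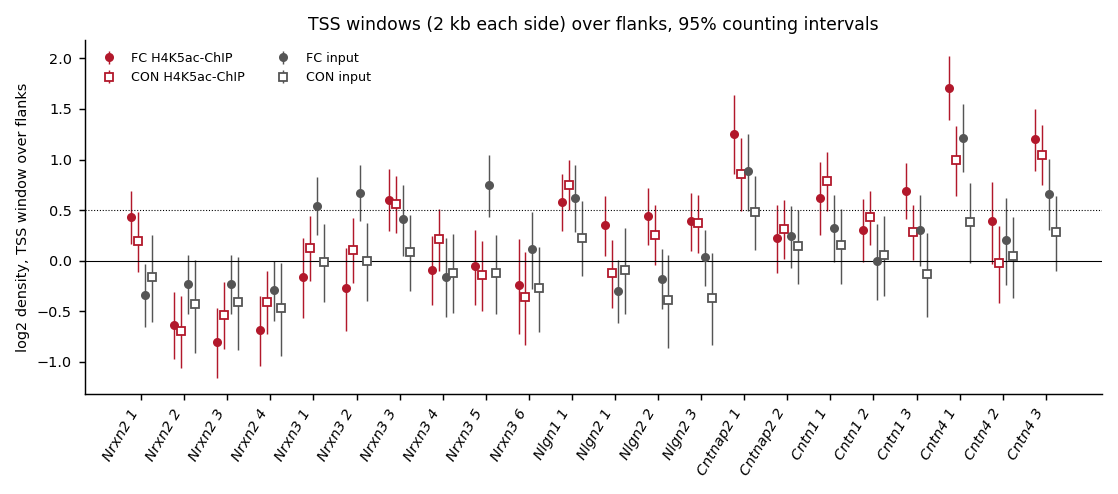
Log2 ratio (vertical axis) of read density within 2 kb of each TSS cluster to its flanks for H4K5ac-ChIP and input, with filled circles for FC, open squares for CON and bars for the 95% interval. The dotted line marks 0.5; Cntn4 clusters 1 and 3 and Cntnap2 cluster 1 are highest in H4K5ac-ChIP, and Nrxn2 clusters 2 to 4 lie below 0.

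Cntn4 cluster 1, the outermost coding promoter of Cntn4, held 115 H4K5ac-ChIP reads (0.909 RPKM) in FC and 84 (0.584) in CON, 16 (0.275) and 29 (0.440) in IgG-IP, and 93 (0.509) and 61 (0.430) in input. FC H4K5ac-ChIP was the highest of the 6, and FC IgG-IP was the lowest. Over its flanks it was 1.71 (1.40 to 2.02) log2 units denser in FC and 0.99 (0.64 to 1.33) in CON H4K5ac-ChIP, but FC input was also denser there, by 1.22 (0.88 to 1.55). Of its 40 kb of flanks, 6 kb held no read in any library, and without those the 2 H4K5ac-ChIP values were 1.48 and 0.76. FC exceeded CON at this cluster by 0.64 (0.22 to 1.06) in H4K5ac-ChIP and by 0.24 (-0.24 to 0.73) in input. The same comparison gave 0.63 (0.20 to 1.07) at Nlgn2 cluster 1, with input at 0.47, and 0.55 (0.18 to 0.93) at Nrxn2 cluster 1, with input at 0.52, and the intervals of the other clusters spanned 0.

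Cntn4 cluster 3, the CpG-poor promoter inside the gene, held 110 reads (0.870 RPKM) in FC and 115 (0.799) in CON H4K5ac-ChIP. IgG-IP held 21 (0.361) and 34 (0.515) there, and input held 80 (0.438) and 70 (0.493). The antibody libraries were the highest in both groups. Density was 2.30 times that of the flanks in FC and 2.07 times in CON, or 1.05 (0.75 to 1.34) on the log2 scale in CON, where the lower limit in FC was 0.89. The log2 values of input were 0.66 and 0.28 and those of IgG-IP 0.08 and 0.43. In both groups the densest H4K5ac-ChIP bin of 500 bp lay just upstream of the TSS, at 2.34 RPKM in FC and 1.78 in CON. FC input was also densest in that bin, at 1.01 RPKM, whereas CON input was lowest there, at 0.394. Over the window of this cluster, FC and CON H4K5ac-ChIP did not differ beyond the interval (0.12, -0.27 to 0.51).

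Cntnap2 cluster 1 held 69 H4K5ac-ChIP reads (0.546 RPKM) in FC and 77 (0.535) in CON, 16 (0.275) and 24 (0.364) in IgG-IP, and 69 (0.378) and 72 (0.507) in input. Although the Cntnap2 body was poorer in H4K5ac-ChIP than in IgG-IP, this window was denser in H4K5ac-ChIP by 0.99 (0.19 to 1.87) in FC, and by 0.56 in CON with an interval that spanned 0 (-0.12 to 1.28). Over flanks it was denser by 1.26 and 0.86 in H4K5ac-ChIP and by 0.88 and 0.48 in input.

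Nlgn1 cluster 1, its single coding promoter, had 120 reads (0.949 RPKM) in FC and 165 (1.15) in CON H4K5ac-ChIP, with ratios to flanks of 0.58 and 0.75. FC input had a ratio of 0.62, and without 4 kb of flank that held no read the H4K5ac-ChIP ratios were 0.43 and 0.60, which left 5 of 22 clusters past the limit. Cntn1 cluster 1 had ratios of 0.62 and 0.79, with 0.33 and 0.15 in input. Nrxn3 cluster 3, which lies 231 kb inside the gene, had 0.60 (0.29 to 0.90) and 0.56 (0.27 to 0.84), with 0.41 and 0.09 in input. The other 5 coding clusters of Nrxn3 lay between -0.36 and 0.21. FC input was over 0.5 denser than its flanks at Nrxn3 cluster 5 (0.75), cluster 2 (0.67) and cluster 1 (0.54), where FC H4K5ac-ChIP had -0.06, -0.27 and -0.16. The windows of clusters 1 and 2 overlap.

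Nrxn2 showed the reverse at its inner TSS clusters. Clusters 2, 3 and 4, of which 2 and 3 share most of their windows, lay below their flanks by -0.63, -0.81 and -0.69 in FC H4K5ac-ChIP and by -0.70, -0.54 and -0.41 in CON. Input was also below its flanks, at -0.23, -0.23 and -0.30 in FC and -0.43, -0.41 and -0.46 in CON. IgG-IP had 0.07, 0.05 and -0.93 in FC and -0.15, -0.32 and -1.01 in CON. The flanks of clusters 2 and 3 take in chr19:6451001-6452000, the top H4K5ac-ChIP window of Nrxn2 in the ranking below. Of the 250 bases before the TSS, 118 at cluster 2 and all 250 at cluster 3 lie in exons of coding Nrxn2 transcripts. Whether these annotated starts act as promoters was not tested. At cluster 4 the H4K5ac-ChIP density in the 1 kb centred on the TSS was 0.316 RPKM in FC and 0.195 in CON. In the same place IgG-IP held 0 and 0.0606 RPKM, and input held 0.131 and 0.0845. All 6 libraries were thus low at this TSS, although the Nrxn2 body was the densest of the 7 in H4K5ac-ChIP. Nrxn2 cluster 1 had 0.43 (0.16 to 0.69) in FC and 0.19 (-0.11 to 0.48) in CON.

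**Figure D4:**
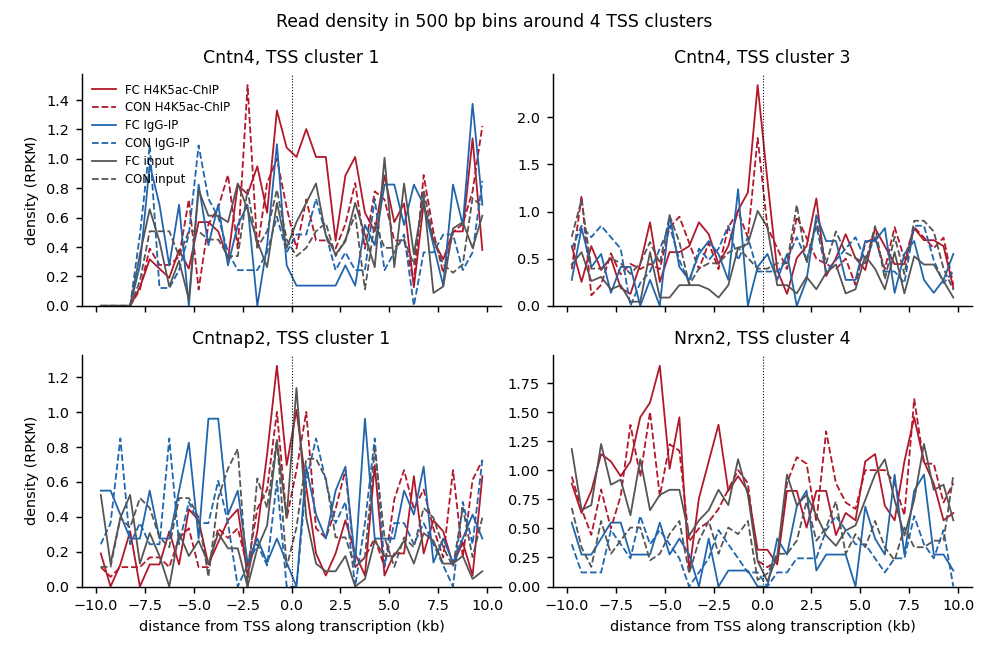
Read density (RPKM, vertical axis) in bins of 500 bp within 10 kb of 4 TSS clusters (horizontal axis, distance along transcription), with solid lines for FC and dashed lines for CON. H4K5ac-ChIP peaks at 2.34 RPKM in FC just upstream of Cntn4 cluster 3, whereas at Nrxn2 cluster 4 all 6 libraries fall at the TSS.

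The densest single kb of H4K5ac-ChIP in most of these genes lay away from the coding TSS clusters. Windows of 1 kb were ranked by the lower of the FC and CON ratios to the gene's own density, without windows over 3 times denser in input. In Nrxn3 the top window (chr12:90368001-90369000) lay in an intron 63.1 kb from the nearest coding TSS and held 66 reads in FC and 65 in CON, 3.89 and 3.22 times the gene density. IgG-IP was 1.56 and 1.09 times and input 1.63 and 1.31 times the gene density there. In Cntn4 the top window (chr6:105798001-105799000), also intronic, was 3.07 and 3.05 times denser, with input at 0.934 and 1.23 times. In Cntnap2 the top 3 windows were intronic and lay in its last bin, 32.1 to 45.1 kb from the second TSS cluster, at 3.15 to 4.36 times the gene density. The first of them (chr6:47226001-47227000) was also 2.45 and 2.17 times denser in input.

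In Nrxn2 the top 3 windows lay 21.9 to 24.9 kb from the nearest coding TSS, at the place of bin 6 of the profile. With noncoding transcripts counted, Nrxn2 has 9 TSS clusters in place of 4, and distances to the noncoding ones are not given. The first (chr19:6451001-6452000, intronic) held 68 reads in FC and 66 in CON, 2.18 and 2.20 times the gene density. The one beside it (chr19:6450001-6451000) overlaps an exon and held 77 and 50 reads.

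Between FC and CON, the GC-rich genes were higher in FC and the 5 GC-poor genes were higher in CON. Nrxn2 was 0.25 (0.18 to 0.31) log2 units denser in FC H4K5ac-ChIP, and Nlgn2 0.22 (-0.01 to 0.44). The 5 others stood at -0.06 (Nrxn3), -0.08 (Nlgn1), -0.10 (Cntn4), -0.13 (Cntnap2) and -0.19 (Cntn1). Thus 2 of 7 genes passed 0.2 in either direction, against 28.3% of all genes, both higher in FC (19.4% of all genes) and none higher in CON (8.94%). Less the FC to CON ratio of input, all 7 genes changed sign, and less that of IgG-IP Nlgn2 did, as given under the dependence on processing.

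The input libraries, which saw no antibody, split the genes in the same way. FC input exceeded CON input by 0.75 (0.67 to 0.83) in Nrxn2 and by 0.90 (0.64 to 1.16) in Nlgn2. In the 5 GC-poor genes it was lower, from -0.21 in Cntn1 to -0.55 in Cntn4. Across 9639 genes of 20 kb or more, rho between GC content and the FC to CON ratio was 0.960 in input, 0.509 in H4K5ac-ChIP (9588 genes) and -0.242 in IgG-IP (9603 genes). Relative to genes of the same GC content, the H4K5ac-ChIP difference was 0.11 in Nrxn2, 0.06 in Nlgn2, 0.03 in Nlgn1, 0.02 in Nrxn3 and Cntn4, -0.02 in Cntnap2 and -0.11 in Cntn1, and 0 of 7 passed 0.2. The share of all genes past 0.2 on this scale is not given. The 28.3% above was counted without regard to GC content.

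**Figure D5:**
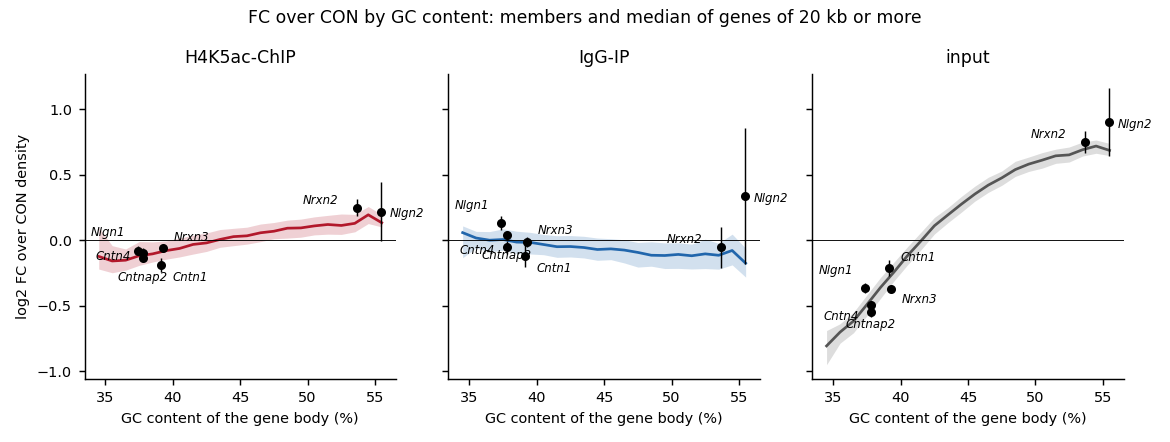
Log2 ratio of FC to CON density (vertical axis) against GC content (horizontal axis, %) for H4K5ac-ChIP, IgG-IP and input, where black points are the 7 genes with 95% intervals, the line is the median over genes of 20 kb or more in steps of 1% and the band its 25th to 75th percentile. The line is steepest in input, where Nrxn2 lies at 0.75 and Cntn4 at -0.55. The point of Nlgn2 lies above the band in all 3 panels, at 0.34 in IgG-IP, but its interval reaches into the band in each. Nlgn2 is shorter than 20 kb and is not among the genes of the line and band.

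In windows of 10 kb, 35 of 587 (5.96%) within the 7 genes passed 0.5 in either direction, against 4.63% of windows in all coding genes. Of these, 1 was higher in FC (1.44% of all windows) and 34 were higher in CON (3.19%). These shares were counted without regard to GC content. The count relative to windows of the same GC content is given under the dependence on processing. Cntnap2 held 25 of the 35, among its 216 windows, and input was lower in FC in each of these 25, from -0.21 to -1.45. The most extreme one (chr6:45370001-45380000) held only 12 reads in FC and 39 in CON, for -1.51 (-2.58 to -0.55), and input was lower in FC there too, at -1.02. Cntn4 held 6, Nrxn3 held 2, and Nlgn1 and Cntn1 held 1 each. In the Cntn1 window (chr15:92080001-92090000), which had 134 reads in FC and 235 in CON, H4K5ac-ChIP was lower in FC by -0.62 (-0.94 to -0.31), with input at -0.13 and IgG-IP at 0.06. Nrxn2 and Nlgn2 held none.

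The wider set of 46 genes for synaptic adhesion, among them Nlgn3, the other contactins and their associated proteins, the neurexophilins and the Lrrtm and Slitrk families, gives the setting for these values. Of the 45 with enough reads in FC and the 46 in CON, 14 in each group were over 1 log2 unit denser in H4K5ac-ChIP than in IgG-IP, and the medians were 0.56 and 0.68. Of all protein-coding genes, 34.2% in FC and 25.6% in CON were, with medians of 0.73 and 0.64, so the counts were near the background. The GC-rich paralogs Cntn2 (1.65 and 1.43) and Cntnap1 (1.51 and 1.32) were near Nrxn2. Cntn3 had 0.22 and 0.28. Cntn5 and Cntn6 lay below 0, as Cntnap2 did, at -0.60 and -0.23 and at -0.61 and -0.50, and the values of Cntnap3, Cntnap4 and Cntnap5a, Cntnap5b and Cntnap5c were also below 0. Between FC and CON, 5 of the 46 were over 0.2 higher in FC and 8 were over 0.2 higher in CON, where 19.4% and 8.94% of all genes were.

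As a check of the tissue, gene bodies of neuronal markers had a median H4K5ac-ChIP to IgG-IP ratio of 0.98 in FC (9 of 10 genes with enough reads) and 0.63 in CON (10 genes), and genes of other organs had 0.21 and 0.09 (9 of 10 genes). The ranges overlapped, from 0.33 to 1.31 in FC and -0.71 to 2.08 in CON for the neuronal genes and from -1.04 to 1.32 and -1.05 to 1.13 for the others. Of the neuronal genes, 4 in FC and 2 in CON were above 1, and of the others 1 was in each group. In bulk hippocampus, fewer cells that carry the mark at a gene and less mark per cell cannot be told apart.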

How the data were processed

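Aligned reads of 6 libraries were analysed. Sequencing was by SOLiD (50-bp reads), alignment to mm9 was by Bioscope, and the authors provided the result as BED lines, 1 for each read. The deposited score of each line is the mapping quality, from 4 to 100, and is no count. All reads were used, without extension. GENCODE gene models of that build were used. Counting used Python 3.11.15 and NumPy 2.4.6, intervals SciPy 1.17.1 and tables pandas 2.3.3, and figures were drawn with matplotlib 3.10.9. A read was assigned to every region it overlapped by 1 bp or more.

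Densities carry exact Poisson intervals and log2 ratios exact Clopper-Pearson intervals on the reads of both libraries or regions. Gene ratios needed 50 reads in the 2 libraries together, as did windows of 10 kb. Counting and ratios were tested on simulated data. In simulated FC to CON H4K5ac-ChIP counts without a change, 11.6% of 16968 genes passed 0.2 by counting error, as did 80.0% of 50 genes lowered to 0.8 times and 96.0% of 50 raised 1.5-fold.

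The members and the lists of other genes were chosen with earlier results of these data known. Named were all 7 members with each of their TSS clusters past the limit, the up to 3 densest windows of 1 kb per gene, and, for the 6 members of 20 kb or more, the 2 genes nearest in 8 ratios. Groups came from the labels. Alternatives covered read sets, scaling, controls, GC content, segment and window sizes. Of them, 2 were chosen after seeing the data: leaving out windows dense in input, and leaving out flank tiles of 1 kb with no read.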

Additional observations from a re-analysis of the deposited data

Results flagged for a closer look

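In 2 genes H4K5ac-ChIP stood above a control library in 1 group and below it in the other, with intervals on both sides away from 0. The difference between the groups was not tested, since each group is 1 library. In Cntnap2, H4K5ac-ChIP over input was 0.11 in FC and -0.25 in CON over the gene body, 0.31 and -0.29 in the start segment, and 0.047 and -0.10 in the end segment. Over the same gene body FC input was lower than CON input by -0.49 log2 units, and IgG-IP differed by 0.04. In the end segment of Nlgn1, the log2 ratio of H4K5ac-ChIP to IgG-IP stood at -0.20 (FC) and 0.14 (CON). That segment holds the 50 kb in which FC IgG-IP was 5.30 times and CON IgG-IP 3.54 times as dense as in the rest of the gene.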

How the results depend on the processing

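Of 497 values recomputed under an alternative, 343 stayed within the counting interval of the value as first computed, 144 left it, and 10 reversed, which counts only values past their limit at first. With 1 read per position and strand, the midpoint of the read, or only reads with a score of 20 or more, no such value reversed. With input as control, 0 genes in FC and 1 in CON passed 1 log2 unit in place of 2. Relative to genes of the same GC content, 0 did in either group, 0 of 7 passed 0.2 between FC and CON, and Nlgn2 in FC turned to -0.31. Less the FC to CON ratio of input, 6 of 7 genes passed 0.2 and all 7 changed sign. Nrxn2 was then at -0.50, Nlgn2 at -0.68, Nrxn3 at 0.31, Nlgn1 at 0.29, Cntnap2 at 0.36, Cntn4 at 0.46 and Cntn1 at 0.02. Over all protein-coding genes that input ratio itself ran from -0.52 to 0.85 (5th to 95th percentile). Less the FC to CON ratio of IgG-IP, Nlgn2 turned to -0.12. With the first and last 10% of the gene in place of segments, 1 gene was denser at the start in FC, Cntn4 in FC was no longer past -0.2, and Nlgn2 turned to -0.14 in FC and stood at -0.88 in CON. Less the start to end ratio in IgG-IP, 3 genes were denser at the start in CON, and in FC Nrxn3 (0.18) and Cntn4 (-0.084) were no longer past the limit while Nlgn1 (0.81) was. Less that in input, 5 were in FC and 3 in CON, and in FC Nrxn3 turned to -0.053, Cntnap2 to 0.26 and Cntn4 to 0.072. Less the flank ratio in input, 2 TSS clusters passed 0.5 in both libraries (Cntn4 cluster 3 and Nlgn2 cluster 2), and Nlgn1 in FC turned to -0.045. Less that in IgG-IP, 7 passed, of which only Cntnap2 cluster 1 and Cntn4 cluster 3 are among the 6 of the report, and Nrxn2 cluster 4 turned to 0.24 in FC and 0.60 in CON. No window of 50 kb passed 0.5 (0 of the members' windows), and relative to windows of the same GC content 17 windows of 10 kb did. Except for input as control, the share of all genes, TSSs or windows past the limit under these alternatives is not given. Apart from counting error, the spread between animals is unknown, and windows of Nlgn2 and of single TSSs rest on few IgG-IP reads. No paired analysis was possible because each group and antibody has 1 library.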

Other observations

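For 6 of the 7 genes, the genes of 20 kb or more with the most similar set of 8 ratios were named, among 9549 genes. The ratios are H4K5ac-ChIP over IgG-IP at the first TSS and in the start, middle and end segments of FC and CON, and the distance is Euclidean in log2 units. Cntn1 had the closest neighbours, Cab39l at a distance of 0.159 and Rngtt at 0.187. Nrxn3 was nearest to Gm12824 (0.218) and Fam135b (0.359), and Nrxn2 to Gprc5b (0.273) and Zhx2 (0.398). Cntn4 was nearest to Nudcd1 (0.394) and Glis3 (0.398), Nlgn1 to Cyp27a1 (0.414) and Mff (0.459), and Cntnap2 to Mamdc2 (0.452) and Sox5 (0.488). In Nlgn1 the end segment, with the stretch dense in IgG-IP included, stood at -0.20 in FC and 0.14 in CON. Its start and middle segments stood at 0.61 to 0.85, and distances without the dense stretch are not given. The median distance to all genes ran from 1.69 for Cntn1 to 2.85 for Cntnap2. Nlgn2 is shorter than 20 kb and was not compared.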
